A study of Mus musculus with 8 samples.

Results

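The T cell receptor V segments are the gene segments that encode most of the antigen-binding part of each receptor chain. They were taken as all genes annotated TR_V_gene in GENCODE M21 (mouse build GRCm38) whose symbols start with Trav, Trbv, Trgv, Trdv or Tcrg-V, matched to the count tables by Ensembl identifier. Of 41214 gene identifiers in the tables, 131 were V segments, with 98 at the alpha locus, 21 at the beta locus, 7 at the gamma locus and 5 at the delta locus. The alpha and delta segments lie on chromosome 14, the beta segments on chromosome 6 and the gamma segments on chromosome 13. The 9 alpha segments that can also join to delta carry -dv in their names and were counted at the alpha locus. A count was found for 88 of the 131 segments in at least 1 library, for 84 in a T cell tumour and for 59 in a B cell tumour, and the 43 at 0 in all 8 libraries were all alpha segments.

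Messenger RNA had been sequenced from 8 spleen tumours of C57Bl6 mice, each from its own animal. The groups were T deltaPOZ and T wt, labelled as CD4+ T cell tumours, and B deltaPOZ and B wt, labelled as B cell tumours, with n = 2 libraries each. DeltaPOZ stands for Miz1, the zinc finger transcription factor encoded by Zbtb17, without its POZ domain, the part through which it forms multimers, and wt for intact Miz1. The names of the deposited tables tag all T libraries with Notch and the T deltaPOZ libraries alone with ENU, tags that the labels do not explain, so that genotype and this tag cannot be told apart. They also give run numbers that differ between T and B, so that lineage and run cannot be told apart either. Gene counts per library came to 52.8 and 58.3 M in T deltaPOZ, 49.5 and 57.4 M in T wt, 53.7 and 50.9 M in B deltaPOZ and 56.7 and 44.3 M in B wt. At this depth the upper limit for a segment with no count was 0.0515 to 0.0677 CPM (counts per M gene counts), counting error only, and all other CPM values include the normalization factor of the library.

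The labelled lineages were checked with marker lists. The summed level of 9 T cell markers was 2154 to 2418 CPM in T libraries and 110 to 227 CPM in B libraries, and that of 7 B cell markers was 18.98 to 105 CPM in T libraries and 1590 to 2628 CPM in B libraries. No marker of either list was at 0. Markers of other blood cells were measured as well. Erythroid markers summed to 5168 and 8250 CPM in T deltaPOZ and 2836 and 14845 CPM in T wt, above the T cell markers in each, against 3.31 to 183 CPM in B libraries. NK cell markers summed to 52.3 and 85.1 CPM in T deltaPOZ and 119 and 88.7 CPM in T wt, against 1.38 to 27.7 CPM in B libraries, and neutrophil and macrophage markers to 255 and 152 CPM in T deltaPOZ and 286 and 69.9 CPM in T wt, against 58.4 to 912 CPM in B libraries. Klrb1c made up nearly all of the NK sum in T, at 51.1 and 84.4 CPM in T deltaPOZ and 118 and 87.7 CPM in T wt. Ncr1 and Klra8 were lower in T than in B (log2 fold change -1.69 and -2.92, edgeR adjusted p = 0.131 and 0.106). Eomes was higher (0.82, edgeR adjusted p = 0.429). Of the NK list, Klra8 was at 0 in T wt 2. The list as a whole thus does not show NK cell RNA to be higher in T. Cd4 stood at 98.8 and 118 CPM in T deltaPOZ and at 331 and 432 CPM in T wt, and Cd8a, a coreceptor that mature CD4+ T cells lack, at 356 and 648 CPM in T deltaPOZ and at 760 and 1246 CPM in T wt. The label CD4+ thus described tumours whose RNA held both coreceptors. T wt 1 stood apart in its sex-linked RNAs: Xist reached 1246 CPM in it and 11.8 to 35.4 CPM in the remaining T tumours, while Ddx3y was 22.5 CPM in it and 142 to 184 CPM in them.

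In a developing T cell the RAG recombinase joins 1 V segment to a J segment, with a D segment between them at the beta and delta loci, and the joined exon is spliced to a constant gene. The beta chain is assembled before the alpha chain, and a mature alpha-beta T cell usually expresses 1 functional beta chain. Descendants of a cell inherit its joints, so the RNA of an expanded clone holds few V segments and that of a mixed T cell population holds many. Alpha segments near the J segments are used in the first rounds of joining, and the delta locus lies inside the alpha locus, where it is deleted when alpha segments join.

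The segments on which the results turn are the 5 that led the alpha or beta V counts in a T library. For each, the last 298 or 299 bases of its coding sequence in GENCODE M21 are given from 5′ to 3′, with the codon of the conserved second cysteine, the position after which the V-J or V-D-J junction starts, in capitals. On GRCm38, plus strand, the genes lie as follows: Trav16 at chr14:53743104-53743705, Trav21-dv12 at chr14:53875984-53876752, Trbv13-3 at chr6:41130147-41130585, Trbv16 at chr6:41151740-41152230 and Trbv20 at chr6:41188273-41188977.
Trav16: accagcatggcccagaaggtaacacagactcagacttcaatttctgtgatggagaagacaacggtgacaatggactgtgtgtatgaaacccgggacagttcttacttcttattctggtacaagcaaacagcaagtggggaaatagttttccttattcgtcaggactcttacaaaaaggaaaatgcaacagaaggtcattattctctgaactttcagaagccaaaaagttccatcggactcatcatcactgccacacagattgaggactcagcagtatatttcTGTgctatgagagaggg
Trav21-dv12: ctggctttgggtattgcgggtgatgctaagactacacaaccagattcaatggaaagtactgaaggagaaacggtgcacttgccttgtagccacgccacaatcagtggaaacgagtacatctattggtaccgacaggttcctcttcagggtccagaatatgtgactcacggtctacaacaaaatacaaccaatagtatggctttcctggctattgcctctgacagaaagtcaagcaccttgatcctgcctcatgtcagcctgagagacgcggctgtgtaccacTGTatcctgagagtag
Trbv13-3: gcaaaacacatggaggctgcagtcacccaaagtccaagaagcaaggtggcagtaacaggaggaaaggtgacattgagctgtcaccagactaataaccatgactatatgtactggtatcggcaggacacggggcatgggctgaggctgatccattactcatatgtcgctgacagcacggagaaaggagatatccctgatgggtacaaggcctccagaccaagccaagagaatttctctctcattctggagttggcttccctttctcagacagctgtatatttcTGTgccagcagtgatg
Trbv16: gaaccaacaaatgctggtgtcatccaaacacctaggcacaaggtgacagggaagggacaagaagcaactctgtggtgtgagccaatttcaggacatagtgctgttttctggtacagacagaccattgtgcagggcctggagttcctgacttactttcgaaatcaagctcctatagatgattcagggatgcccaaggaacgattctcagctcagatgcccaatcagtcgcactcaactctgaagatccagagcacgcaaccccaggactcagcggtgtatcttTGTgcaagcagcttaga
Trbv20: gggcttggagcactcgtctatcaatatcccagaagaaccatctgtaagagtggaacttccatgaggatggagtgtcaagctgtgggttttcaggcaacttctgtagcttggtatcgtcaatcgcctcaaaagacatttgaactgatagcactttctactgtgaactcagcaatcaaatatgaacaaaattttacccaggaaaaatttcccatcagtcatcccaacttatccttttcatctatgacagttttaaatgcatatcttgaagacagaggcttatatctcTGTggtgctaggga
Between these 5 segments, 48.8 to 56.2% of aligned bases were identical. How far reads can be told apart differed between them. Every 50-base stretch of the Trbv16, Trbv20 and Trav21-dv12 transcripts was unique among all annotated transcripts, as were 99.7% of those of Trbv13-3, whose closest relative is Trbv13-2 at 90.6% identity. For Trav16, with 97.7% identity to Trav16n, 51.8% of stretches were unique, and its counts are uncertain to that extent.

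At the beta locus a single V segment held nearly all V counts in both T deltaPOZ tumours, and it was a different segment in each. In T deltaPOZ 1, Trbv16 held 24589 of 25390 beta V counts (96.8%, Wilson 95% interval 96.6 to 97.1%). In T deltaPOZ 2, Trbv20 held 22819 of 24041 (94.9%, 94.6 to 95.2%). In T wt 2, Trbv13-3 held 26698 of 32157 (83.0%, 82.6 to 83.4%), followed by Trbv20 with 9.41%. T wt 1 had no such leader: Trbv16 held 8365 of 25350 (33.0%, 32.4 to 33.6%), Trbv20 held 28.8% and Trbv13-3 held 10.6%. The intervals cover counting error only.

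**Figure D1:**
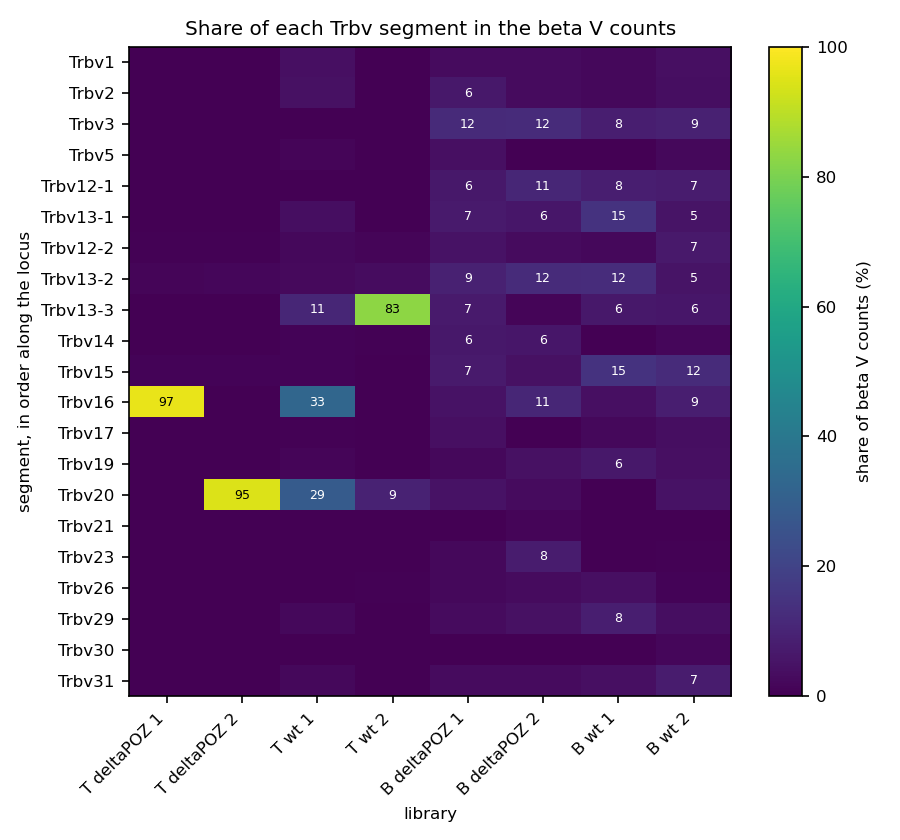
Share of each of the 21 Trbv segments (rows, in order along the locus) in the beta V counts of each library (columns), in percent, with values of 5% or more printed. T deltaPOZ 1, T deltaPOZ 2 and T wt 2 each show 1 dominant segment, while T wt 1 and the B libraries spread over several.

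The segments that led in 1 tumour were nearly silent in another. Trbv16 was measured at 451 and 1.44 CPM in T deltaPOZ and at 155 and 0.829 CPM in T wt. Trbv20 was measured at 0.293 and 378 CPM in T deltaPOZ and at 135 and 54.6 CPM in T wt. Trbv13-3 was measured at 0.220 and 0.298 CPM in T deltaPOZ and at 49.997 and 481 CPM in T wt. Of these 3, Trbv13-3 alone separated the genotypes without overlap, and its levels in T deltaPOZ were near the 0.0199 to 0.245 CPM of the B libraries. The highest T library exceeded the lowest 543-fold for Trbv16, 1290-fold for Trbv20 and 2189-fold for Trbv13-3.

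The number of segments with at least 1% of the beta V counts was 2 and 3 in T deltaPOZ and 12 and 4 in T wt. The effective number of segments, the inverse of the sum of squared shares, which is 1 when a single segment holds everything, was 1.07 and 1.11 in T deltaPOZ and 4.75 and 1.43 in T wt. The mean share of the top segment was 95.9 ± 1.36% in T deltaPOZ and 58.0 ± 35.4% in T wt (SD, n = 2 each), a difference of 37.9 percentage points whose groups did not overlap. The two-sided exact permutation test gave p = 0.3333, adjusted p = 0.667 over 4 tests, and 0.3333 is the smallest p that 2 against 2 allows. The mean effective number was 1.09 ± 0.031 in T deltaPOZ and 3.09 ± 2.35 in T wt (exact permutation p = 0.3333, adjusted p = 0.667). The size of the difference in top share rested on T wt: it was 12.9 points without T wt 1 and 62.9 points without T wt 2. Likewise the difference in mean effective number was -0.34 without T wt 1 and -3.66 without T wt 2. T wt 1 was also the library with the high Xist level, whose part in the result was not tested.

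The B cell tumours gave the background. Their beta V counts were 141 and 66 in B deltaPOZ and 48 and 187 in B wt, and the top segment held 12.1 and 12.1% in B deltaPOZ (Trbv3 in both, tied with Trbv13-2 in B deltaPOZ 2) and 14.6 and 12.3% in B wt (Trbv13-1, tied with Trbv15, in B wt 1 and Trbv15 in B wt 2). The effective number of segments was 15.4 and 13.0 in B deltaPOZ and 10.7 and 14.9 in B wt. The top share averaged 76.9 ± 29.9% in T and 12.8 ± 1.22% in B (SD, n = 4 each), with no overlap and a difference of 64.2 points (exact permutation p = 0.0286, the smallest possible here, adjusted p = 0.114). The effective number averaged 2.09 ± 1.78 in T and 13.5 ± 2.13 in B (exact permutation p = 0.0286, adjusted p = 0.114). A share from under 200 counts is coarse, and the intervals of the B top shares ran from 6.27 to 27.2%.

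**Figure D2:**
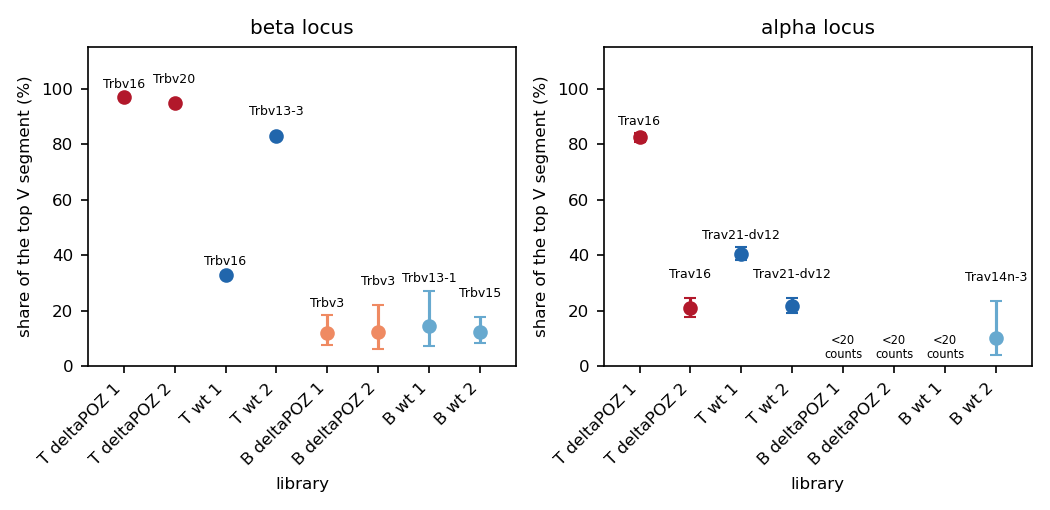
Share of the top V segment at the beta locus (left) and the alpha locus (right) in each library, in percent of the V counts of the locus, with Wilson 95% intervals and the name of the segment. At the beta locus the T deltaPOZ points lie at 96.8 and 94.9%, above T wt at 33.0 and 83.0%, and the B points lie at 12.1 to 14.6%.

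Behind the leader, the remaining beta V RNA was lower in T deltaPOZ. Segments other than the top one summed to 14.7 and 20.3 CPM in T deltaPOZ and to 315 and 98.4 CPM in T wt, against 2.42 and 1.16 CPM in B deltaPOZ and 0.778 and 3.65 CPM in B wt. These sums did not overlap between the T groups, but they follow from the top share and the beta total and are no separate result. In both T deltaPOZ libraries the next segments were Trbv13-2, with 1.41 and 1.93% of beta V counts, and Trbv15, with 0.827 and 1.08%. Trbv15 varied 2.01-fold across the T tumours, at 3.85 and 4.31 CPM in T deltaPOZ and 4.46 and 2.22 CPM in T wt. In bulk RNA, fewer cells that use a segment and less RNA per cell cannot be told apart.

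Constant and J genes of the beta locus were not used to choose the segments. Trbc1 and Trbc2 are the alternative beta constant genes, each with its own D and J segments. Trbc1 held 0.693% of the Trbc1 and Trbc2 counts in T deltaPOZ 1 (95 of 13704, 0.567 to 0.847%) and 58.0% in T deltaPOZ 2, against 40.2 and 48.6% in T wt, 37.9 and 24.1% in B deltaPOZ and 33.3 and 44.9% in B wt. The beta constant counts of T deltaPOZ 1, where Trbv16 led with 96.8%, were thus almost all Trbc2. Of 50-base stretches, 59.5% in Trbc1 and 56.0% in Trbc2 were unique, so reads from their shared parts may be missing from these counts. J segments are short, and only T wt 1 had at least 20 beta J counts, with Trbj1-3 at 32 of 39 (82.1%, 67.3 to 91.0%).

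**Figure D3:**
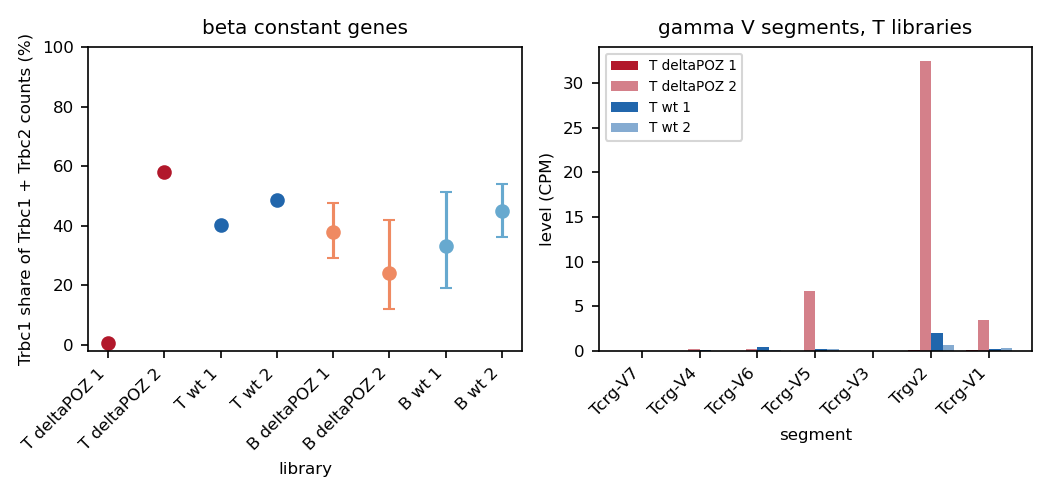
Left, Trbc1 share of Trbc1 plus Trbc2 counts per library in percent, with Wilson 95% intervals. Right, level of each gamma V segment in the T libraries in CPM. T deltaPOZ 1 lies at 0.693% Trbc1 against 24.1 to 58.0% in the other libraries, and T deltaPOZ 2 has the high gamma V levels, with Trgv2 at 32.4 CPM.

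At the alpha locus 1 of the 4 T tumours had a dominant segment. Trav16 held 2068 of 2509 alpha V counts in T deltaPOZ 1 (82.4%, 80.9 to 83.9%). In T deltaPOZ 2 it held 107 of 513 (20.9%, 17.6 to 24.6%), next to Trav17 with 106 and Trav21-dv12 with 68. In T wt 1, Trav21-dv12 held 765 of 1888 (40.5%, 38.3 to 42.8%) and Trav16 14.3%. In T wt 2, Trav21-dv12 held 187 of 859 (21.8%, 19.1 to 24.7%), Trav17 13.4% and Trav14-1 12.8%. The same tumour, T deltaPOZ 1, was thus the most uneven at both loci, while T wt 2, with 83.0% for its beta leader, had no alpha segment above 21.8%.

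The effective number of alpha segments was 1.46 and 8.29 in T deltaPOZ and 5.02 and 9.47 in T wt (exact permutation p = 0.667, adjusted p = 0.667), and the sign of the difference of means, -2.37, turned without T deltaPOZ 1 (1.04). The top alpha share averaged 51.6 ± 43.5% in T deltaPOZ and 31.1 ± 13.3% in T wt (SD, n = 2 each), with overlapping groups (exact permutation p = 1, adjusted p = 1), and without T deltaPOZ 1 the difference of 20.5 points turned to -10.3. Trav21-dv12, the leader in T wt, can also join to delta. With the -dv segments left out, the difference in effective number was -4.10 (exact permutation p = 0.3333, the smallest possible). That in top share was then 32.6 points (exact permutation p = 0.667). Trav17 had nearly the same level in every T tumour, at 1.74 and 1.76 CPM in T deltaPOZ and 1.95 and 2.07 CPM in T wt, the smallest ratio of highest to lowest (1.19-fold) among the 18 V segments with at least 10 counts in each T library. B wt 2 was the only B library with 20 or more alpha V counts, and its leader, Trav14n-3, held 4 of 39.

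Alpha V counts lay towards the J segments. The 10 segments nearest to them, within 446 kb, held 92.2 and 79.1% of alpha V counts in T deltaPOZ and 85.6 and 65.9% in T wt, against 3 of 39 counts (7.69%, 2.65 to 20.3%) in B wt 2. Among the 98 alpha segments analysed, Trav21-dv12 is the nearest, Trav17 the fourth and Trav16 the eighth. The 10 nearest were taken from the same 98. The 55 segments of duplicated blocks (d and n in their names) carried 1.24 and 3.31% of alpha V counts in T deltaPOZ, 3.60 and 4.77% in T wt and 41.0% in B wt 2. Of the 98 alpha segments, 33 had no unique 50-base stretch, and 30 of these were among the 43 at 0. A read of that length from them would align to several places. The remaining 3 of the 33 held 64 counts over the 8 libraries, so the 50-base measure does not describe every read. Alignments that were not unique, 65.6 to 124 M per library over all genes, were assigned to no gene.

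**Figure D4:**
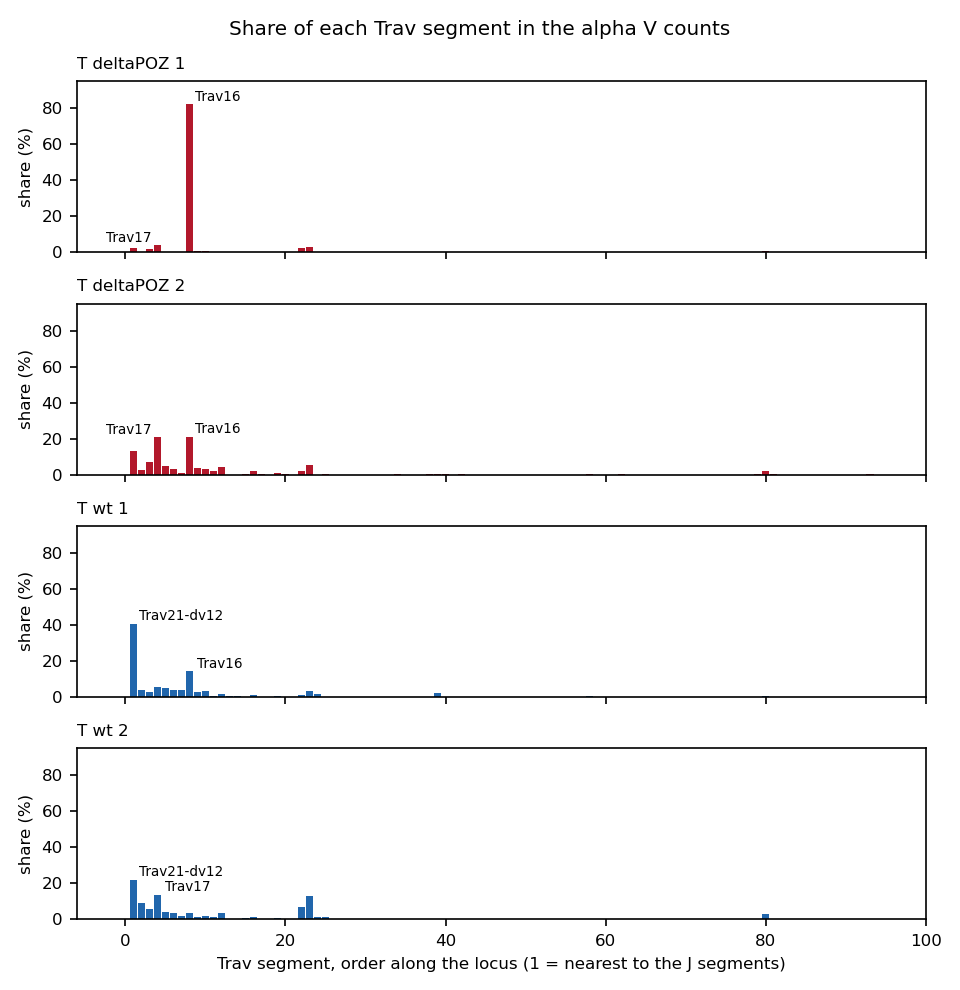
Share of each Trav segment in the alpha V counts, in percent, for the 4 T libraries, against the order of the segment along the locus, counted from the J segments. The tallest bar of each library lies among the first 10 positions, with Trav16 at 82.4% in T deltaPOZ 1 and Trav21-dv12 at 40.5% in T wt 1.

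Among alpha J segments, Traj45 held 25 of 45 J counts in T deltaPOZ 1 (55.6%, 41.2 to 69.1%), the library led by Trav16. The top alpha J segment was Traj24 in T deltaPOZ 2 with 4 of 24 and Traj49 in T wt 1 with 7 of 31. T wt 2 had under 20 alpha J counts.

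At the delta locus T deltaPOZ 1 again differed from the other T tumours. Trdv2-2 held 303 of its 353 delta V counts (85.8%, 81.8 to 89.1%), and Trdv2-1 held 10.5%. Trdv4 was at 0 there, which allows a share of up to 0.850%. Trdv4 led in the other 3, with 345 of 432 counts in T deltaPOZ 2 (79.9%, 75.8 to 83.4%), 476 of 754 in T wt 1 (63.1%, 59.6 to 66.5%) and 951 of 1143 in T wt 2 (83.2%, 80.9 to 85.3%). In T wt 1, Trdv1 added 18.3% and Trdv2-2 11.1%. Of the 50-base stretches of Trdv2-2, 47.4% were unique and of Trdv2-1 43.4%, so their split is uncertain, while Trdv4 was unique throughout. The mean top share, 82.8 ± 4.22% in T deltaPOZ and 73.2 ± 14.2% in T wt (SD, n = 2 each), did not separate the groups (exact permutation p = 0.667, adjusted p = 0.889), and its difference of 9.68 points turned to -0.35 without T wt 1. The effective number of delta segments was 1.33 and 1.53 in T deltaPOZ and 2.24 and 1.43 in T wt (exact permutation p = 0.667, adjusted p = 0.667).

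Gamma V RNA was high in a single tumour, T deltaPOZ 2. Gamma V counts were 13 and 2603 in T deltaPOZ and 165 and 78 in T wt, against 11 and 3 in B deltaPOZ and 2 and 2 in B wt. In T deltaPOZ 2, Trgv2 held 1954 counts (75.1%, 73.4 to 76.7%), Tcrg-V5 405 (15.6%) and Tcrg-V1 208 (7.99%). Trgv2 also led in T wt, with 65.5 and 47.4%, where Tcrg-V6 followed in T wt 1 (13.9%) and Tcrg-V1 in T wt 2 (26.9%). The gamma constant genes moved with the V segments: Tcrg-C2 was measured at 0.238 and 48.4 CPM in T deltaPOZ and at 2.84 and 1.23 CPM in T wt, and Tcrg-C1 at 0.110 and 14.0 CPM in T deltaPOZ and at 1.76 and 2.22 CPM in T wt. Of the markers of gamma-delta T cells, Sox13 stood at 0.238 and 0.348 CPM in T deltaPOZ and 0.186 and 0.162 CPM in T wt, Zbtb16 at 1.87 and 2.22 CPM in T deltaPOZ and 0.390 and 0.216 CPM in T wt, and Blk at 5.15 and 5.27 CPM in T deltaPOZ and 7.69 and 1.17 CPM in T wt. Their sum was 7.26 and 7.84 CPM in T deltaPOZ and 8.26 and 1.55 CPM in T wt, and none was at 0. In B libraries it was higher, at 69.7 and 57.4 CPM in B deltaPOZ and 191 and 55.4 CPM in B wt. Blk made up most of it there, at 69.3 and 56.6 CPM in B deltaPOZ and 189 and 52.8 CPM in B wt. Sox13 reached 1.67 and 2.38 CPM in B wt, and Zbtb16 was at 0.114 to 0.658 CPM in B libraries. The sum thus does not measure gamma-delta T cells alone. Trdc, the delta constant gene, was not analysed here. More genes had a count in T deltaPOZ 2 (25387) than in any other library (18339 to 21078), and the part of this in the gamma values was not tested.

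The summed V level adds the counts of all V segments of a locus. It is not free of the choice of segments, because alpha segments differ in how far their reads are unique. Other RNA of a tumour, such as that of erythroid genes, also enters its CPM values. Beta V segments summed to 465 and 398 CPM in T deltaPOZ and 471 and 580 CPM in T wt, and alpha V segments to 46.0 and 8.50 CPM in T deltaPOZ and 35.1 and 15.5 CPM in T wt. Beta totals were thus of the same order in all 4 tumours, whether 1 segment or many made them up. Gamma sums were 0.238 and 43.1 CPM in T deltaPOZ and 3.06 and 1.41 CPM in T wt. Delta sums were 6.47 and 7.16 CPM in T deltaPOZ and 14.0 and 20.6 CPM in T wt, with T deltaPOZ lower in both libraries.

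On the log2(CPM + 0.1) scale the difference of T deltaPOZ minus T wt was -0.23 for alpha, -0.28 for beta, 0.81 for gamma and -1.31 for delta. The beta and delta groups did not overlap (exact permutation p = 0.3333 each, adjusted p = 0.444), and the alpha and gamma groups did (exact permutation p = 1 each). With 1 T library left out, the beta difference ranged from -0.43 to -0.13. The alpha difference turned to 0.98 without T deltaPOZ 2 and 0.35 without T wt 1, and the gamma difference to -2.69 without T deltaPOZ 2. T minus B was 5.90 for alpha, 7.86 for beta, 4.02 for gamma and 6.63 for delta, with no overlap at any locus (n = 4 each, exact permutation p = 0.0286, adjusted p = 0.0571 over 8 tests). At the gamma locus the separation was small at its edge, since T deltaPOZ 1 had 0.238 CPM and B deltaPOZ 1 had 0.215 CPM. Beta V counts per beta constant gene count were 1.85 and 0.878 in T deltaPOZ and 1.08 and 0.899 in T wt, and alpha V counts per Trac count were 0.666 and 0.143 in T deltaPOZ and 0.357 and 0.280 in T wt.

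**Figure D5:**
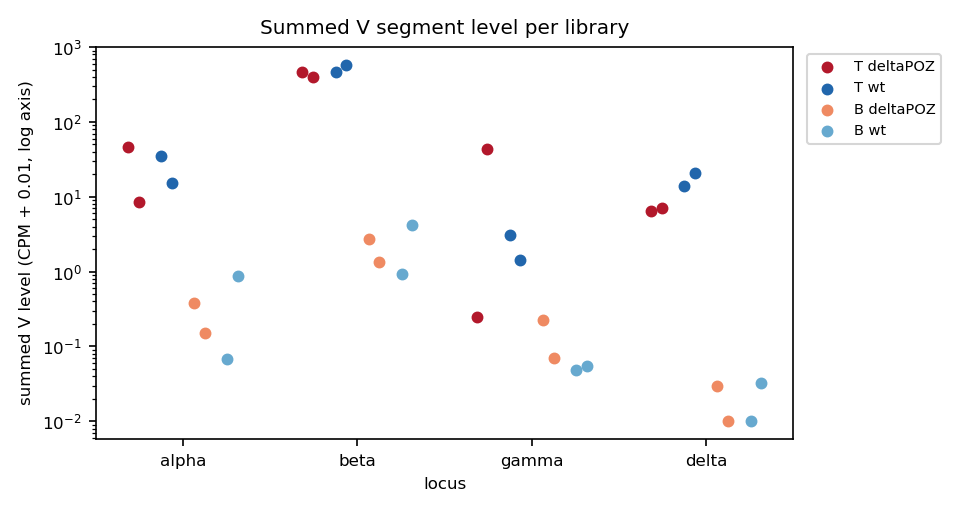
Summed level of all V segments of each locus per library, in CPM plus 0.01 on a log axis, 1 point per library. The T libraries lie above the B libraries at every locus, and at the gamma locus T deltaPOZ spans from 0.238 to 43.1 CPM.

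Segment by segment, no V segment passed the test between T deltaPOZ and T wt. Of the 131 segments, 39 passed the filter on low counts (15 alpha, 15 beta, 4 gamma, 5 delta), and edgeR's quasi-likelihood fit of 16456 genes, with p adjusted by Benjamini-Hochberg, called 0 of them at 0.05, as it called 0% of all genes tested. At an unadjusted p under 0.05 there were 15 of 39, all lower in T deltaPOZ, where all genes gave 2.65%, and limma-voom called 0. Some of these, such as Trbv2 and Trbv26, passed the filter through T wt alone, where they are high. Segments of 1 locus also share their tumours, so neither this count nor those below are counts of independent segments. DESeq2 called 4 of 39, all lower in T deltaPOZ: Trbv2, Trbv13-1, Trbv13-3 and Trbv26. It called 0.298% of all genes, 0.188% as lower, and gave 3 segments no adjusted p. Without the filter on low counts, edgeR called 15 of the 88 segments with a count, 4 higher and 11 lower in T deltaPOZ, where 0.514% of all 27639 genes with a count were called higher and 0.405% lower. Trbv2, Trbv13-1 and Trbv26 are named after their values were seen. The log2 fold change of Trbv13-3 was -9.98 (SE 1.45, edgeR adjusted p = 0.855), and the smallest adjusted p, 0.417, belonged to Trbv26 at -6.91 (SE 0.77), which was measured at 0.0183 and 0.0166 CPM in T deltaPOZ and 1.71 and 3.05 CPM in T wt. Trbv26 had 1 count in each T deltaPOZ library, so its fitted fold change and its SE depend on the prior count. SE here and below is the size of the log2 fold change over the square root of edgeR's F statistic. It is an approximation and not a standard error given by the fit, and it is rough at so few counts.

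The leading segments had wide errors. The log2 fold change was 1.53 for Trbv16 (SE 2.31), 0.99 for Trbv20 (SE 1.95), 2.84 for Trav16 (SE 1.70), -2.98 for Trav21-dv12 (SE 1.18), 3.60 for Trgv2 (SE 1.90) and -2.18 for Trdv4 (SE 2.07), each with an edgeR adjusted p of 1. Without the filter, with nearly the same fold changes, edgeR's adjusted p was 5.37e-05 for Trbv16, 9.62e-05 for Trgv2, 0.0019 for Trav16 and 0.0148 for Trav21-dv12, and 0.068 for Trbv20 and 0.104 for Trdv4. Single libraries set the sign of several: Trbv16 was at -5.76 without T deltaPOZ 1, Trbv20 at -8.32 without T deltaPOZ 2, Trav16 at -0.65 without T deltaPOZ 1 and Trgv2 at -3.57 without T deltaPOZ 2. Trdv4 kept its sign but was at -12.4 without T deltaPOZ 2 and -1.19 without T deltaPOZ 1, and Trav21-dv12 was at -1.60 without T wt 1. With limma-voom, Trdv4 was at -5.66, Trgv2 at 0.85 and Trbv20 at -2.84. Trav21-dv12 was measured at 1.10 and 1.13 CPM in T deltaPOZ and at 14.2 and 3.37 CPM in T wt, with no overlap.

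Counting every segment with a count in a T library, 38 of 84 were lower in both T deltaPOZ libraries than in either T wt library, 1 was higher and 45 overlapped. Over all 26945 genes with a count in a T library, 12.4% were lower without overlap and 13% higher. By locus the lower ones among the 84 were 13 of 21 beta, 22 of 51 alpha, 3 of 5 delta and 0 of 7 gamma segments. Of the 39 segments that passed the filter, 25 were lower without overlap and 0 higher, where 17% of the 16456 genes tested were lower and 15.4% higher. Some of the 39, such as Trbv26, passed the filter through T wt alone, where they are high, so that part of this count was set by the filter. Segments of 1 locus in 1 tumour share their cells, so these counts describe 4 libraries and not independent segments. Many of the 84 also had few counts.

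Against the B tumours, 31 of the 39 tested segments were higher in T and 0 lower by edgeR's test at an adjusted p under 0.05, where 19.3% of all genes were higher, 16% lower and 35.3% either. The filter fixed much of this count, since 30 of the 39 had under 10 counts in every B library and so passed through the T libraries. The called segments were 14 of 15 alpha, 10 of 15 beta, 3 of 4 gamma and 4 of 5 delta segments. The 4 erythroid markers were also all called higher in T, and their part in the T minus B results was not tested.

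RNA levels of other genes of receptor assembly and signalling were compared in the same way. None of the 6 constant genes tested, 5 receptor partners (Cd3d, Cd3e, Cd3g and Cd247, the signalling chains, and Ptcra, the partner of the beta chain before alpha is made), 3 coreceptors or 3 rearrangement genes passed edgeR's test between T deltaPOZ and T wt. Against B, 6 of 6 constant genes, 5 of 5 partners, 3 of 3 coreceptors and 1 of 3 rearrangement genes (Dntt, which adds bases at the joints) were higher in T, and none was lower. Cd3e was level across the T tumours, at 86.0 and 78.5 CPM in T deltaPOZ and 93.4 and 87.9 CPM in T wt.

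T deltaPOZ 1, with the narrowest beta, alpha and delta usage, held little RNA of the rearrangement genes. Rag1, a recombinase subunit, was measured at 8.30 and 1068 CPM in T deltaPOZ and at 758 and 988 CPM in T wt. Rag2, its partner, was measured at 0.0733 and 28.7 CPM in T deltaPOZ and at 22.01 and 37.9 CPM in T wt. Dntt stood at 5.13 and 278 CPM in T deltaPOZ and at 112 and 417 CPM in T wt, and Ptcra at 18.98 and 172 CPM in T deltaPOZ and at 101 and 222 CPM in T wt. In all 4 genes T deltaPOZ 1 was the lowest T library, and T deltaPOZ 2 lay within the range of T wt or above it. Their relation to V segment usage was not tested.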

How the data were processed

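Messenger RNA libraries (MagMax-96 extraction, TruSeq Stranded mRNA) were deposited as HTSeq counts per gene, 1 table per tumour. Per the submitters' processing notes, the authors used TopHat2 2.0.10, SAMtools, HTSeq and DESeq with mm10/GRCm38. The annotation release is not given in the sources used here, nor is the strand setting. The deposited counts were used as raw counts. No-feature counts (30.4 to 39.3%) and ambiguous counts (0.471 to 0.554%) were left out. GENCODE M21 held 40340 of 41214 identifiers (97.9%). It annotates 142 V segments with such symbols, of which 11 were not analysed here, and 1 TR_V_gene with another kind of symbol, B230359F08Rik, was left out.

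The share of a segment is its counts over all V counts of its locus in a library, given where these reached 20, with Wilson 95% intervals. Shares are of counts, not per length. CPM uses trimmed mean of M values factors (0.929 to 1.087). All 8 libraries were fitted in edgeR 4.0.16 (filterByExpr, glmQLFit, glmQLFTest, 1 mean per group; 4 residual degrees of freedom, biological coefficient of variation 0.45), with p adjusted over 16456 genes. Shares, effective numbers and log2(CPM + 0.1) sums were compared by two-sided exact permutation tests over libraries, adjusted within each measure. limma 3.58.1 and DESeq2 1.42.0 ran in R 4.3.3; shares, exact tests and figures used SciPy 1.17.1, NumPy 2.4.6, matplotlib 3.10.9 and pandas 2.3.3 in Python 3.11.15. On simulated data, edgeR recovered 0, 17.9 and 77.3% of genes changed 2-, 4- and 8-fold in T deltaPOZ minus T wt (2 false calls). In T minus B it recovered 4.48, 82.1 and 98.5% (5 false calls). The simulation gave all genes the same spread and changed only genes above a minimum mean level. These rates therefore need not hold for V segments, and whether they do was not tested. Within T deltaPOZ, Trbv16 was measured at 451 and 1.44 CPM. Trbv13-3 was not called in T deltaPOZ minus T wt at a log2 fold change of -9.98 (edgeR adjusted p = 0.855).

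Named segments hold at least 10% of their locus in a T library, lead it in any library, or pass 0.05 between T deltaPOZ and T wt; evenness of Trav17 and Trbv15 and the 3 DESeq2 calls outside this rule were picked after values were seen. The segments and gene lists were chosen with earlier results of these data known. The labels number no replicates, so numbers here are names by record order and do not pair libraries. Settings tried were other normalizations, tools, filters and thresholds, the T libraries alone, pseudogene segments added, counts per kb, V families, -dv segments left out, a minimum of 10 counts per segment and each library left out; adding B230359F08Rik to the alpha locus was chosen after seeing the data. The value of 1 marker gene is not reported here.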

Additional observations from a re-analysis of the deposited data

How the results depend on the processing

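Of 265 values recomputed under other settings, 245 were labelled unchanged and 12 changed direction, 11 of them with a library left out. The tally includes values that could hardly change, such as T deltaPOZ minus T wt fold changes refitted without a B library. Summed gamma and delta levels with pseudogene segments added were the same values as before. The tally therefore does not measure how firm the results are. Unchanged meant the same sign for shares, effective numbers and summed levels, whose p-values were not compared. For single segments it meant the same direction and side of 0.05, and for counts of calls a similar count. With a library left out, the exact permutation p of the beta top share in T minus B rose from 0.0286 to 0.0571. For T deltaPOZ minus T wt, leaving out 1 library at a time gave ranges of -1.44 to 0.98 for the summed alpha V level and -2.69 to 4.31 for the gamma level on the log2 scale. The alpha top share ranged from -10.3 to 51.3 percentage points, the delta top share from -0.35 to 19.7 points, the effective number of alpha segments from -5.78 to 1.04 and that of delta segments from -0.80 to 0.00417. In the same fits the log2 fold change ranged from -5.76 to 8.09 for Trbv16, -8.32 to 1.99 for Trbv20, -0.65 to 5.19 for Trav16 and -3.57 to 4.59 for Trgv2. Trdv4 ranged from -12.4 to -1.19 and Trav21-dv12 from -3.67 to -1.60. The beta top share stayed higher in T deltaPOZ in each (12.9 to 62.9 points), the beta effective number lower (-3.66 to -0.34) and the beta level lower (-0.43 to -0.13). With limma-voom Trbv20 was at -2.84, Trdv4 at -5.66 and Trgv2 at 0.85. Against 0 calls by edgeR, DESeq2 called 4 of 39 V segments, all lower in T deltaPOZ, and edgeR with no filter on low counts called 15 of 88 (4 higher, 11 lower), with 0.298% of all genes called by DESeq2 and 0.514% higher and 0.405% lower without the filter; the cause was not tested. In T minus B, 22 to 31 segments were called with a library left out, of 42 to 48 tested, since the filter was rerun in each fit. The share of all genes called was not recorded for these fits. With all libraries it was 31 of 39 segments, where 35.3% of all genes were called, and most of the 39 passed the filter through T. No paired analysis was possible because the labels give each tumour its own mouse and number no replicates across groups. A locus with few V counts, such as alpha in B, gave no share, and 2 libraries a group cannot reach p = 0.05 in a permutation test.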
